A study of Homo sapiens with 24 samples.

Results

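Nucleotide excision repair was followed through 33 genes chosen by symbol, of 16795 genes listed for at least 1 of 4 human small-cell lung cancer lines. They comprise 7 genes that recognise damage anywhere in the genome, 7 that couple repair to transcription, 10 subunits of the transcription and repair factor TFIIH, 4 that verify and cut the damaged strand, 3 that seal it and 2 cofactors. The files listed 32 of them in at least 1 line and 29 in all 4 lines, with 31 members for H187, 29 for H209, 29 for H82 and 31 for SHP-77.

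Nucleotide excision repair removes bulky lesions and adducts that distort the DNA helix. Damage is found either by XPC and the DDB1-DDB2 complex surveying the whole genome, or by RNA polymerase II stalling on a transcribed strand, where CSB (ERCC6) and CSA (ERCC8) act. Both routes hand the lesion to TFIIH, whose helicases open the DNA, and to XPA. The nucleases ERCC1-ERCC4 and ERCC5 then cut out the damaged stretch, and polymerases and ligases fill and seal the gap. Lurbinectedin binds guanines in the minor groove, and cells that lack transcription-coupled repair are known to be less sensitive to the related drug trabectedin.

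The 4 lines are established human cell lines, of which the submitters class H187 and H209 as ISL1 "high", and both H82 and SHP-77 as "low" for the same gene. Each was exposed to 0.1 nM lurbinectedin for 24 h or to the DMSO vehicle, in biological triplicate, which gave 24 libraries in 8 groups of 3. Each class is only 2 lines, so ISL1 status and any other difference between the lines cannot be told apart, and the results hold for these 4 lines. The deposited libraries held 24226553 to 36415190 counts. Small-cell lung cancer markers were listed for 7 of 8 genes in H187, H209 and H82 and 6 of 8 in SHP-77, with CHGA listed for no line and NEUROD1 not for SHP-77, and their sum lay between 828 and 2894 CPM (counts per 1000000 library counts) in every library. Of 11 fibroblast, leukocyte and endothelial markers 3 or 4 were listed per line, with sums of 2.92 to 17.9 CPM, and DCN, PTPRC, CD3E and CDH5 were listed for none.

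4 members could not be followed across the lines. GTF2H2, a TFIIH subunit gene with near-identical copies in the genome, was listed for no line. CDK7, the kinase of TFIIH, was listed only for H187, with 11 to 29 counts per library. GTF2H4, the TFIIH subunit that anchors the ERCC3 helicase, was listed only for SHP-77, with 20 to 41 counts. STK19, a transcription-coupled repair factor, was listed for H187 and SHP-77, with 18 to 43 counts. The deposited gene models of CDK7, GTF2H4 and STK19 also carry exons on alternative contigs, so their low counts are uncertain and they were left out of the ranking by level. GTF2H4 further shares 79.0% of its exon bases with VARS2 on the same strand. A gene absent from a table here is a gene not analysed in that line.

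Under DMSO the pathway spanned a wide range of levels, with largely the same genes at its extremes in the 4 lines. Per kb of exon, HMGN1, a chromatin protein that binds nucleosomes, was the highest of the 29 ranked members in every line. HMGN1 had 333 ± 16.1 CPM per kb in H187, 227 ± 7.99 in H209, 173 ± 2.02 in SHP-77 and 238 ± 3.40 in H82 (SD, n = 3 each). DDB1, the adaptor of the CUL4 ubiquitin ligases, came second with 104 ± 4.79 CPM per kb in H187, 132 ± 4.02 in H209, 133 ± 0.525 in SHP-77 and 140.2 ± 4.50 in H82. Both stood far above the median of all listed genes, which was 7.58 to 8.18 CPM per kb in the 4 lines.

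The third place fell to RAD23B, the XPC partner that delivers substrates to the proteasome, in 3 lines, with 76.3 ± 1.43 CPM per kb in H209, 67.9 ± 2.30 in SHP-77 and 92.8 ± 1.84 in H82. In H187 it was CETN2, the centrin subunit of the XPC complex, at 67.5 ± 3.24 CPM per kb. At the low end stood the nuclease gene ERCC5, with 1.35 ± 0.0647 CPM per kb in H187, 0.477 ± 0.0201 in H209, 0.972 ± 0.0580 in SHP-77 and 0.941 ± 0.0865 in H82. ERCC5 shares 63.2% of its exon bases with the read-through gene BIVM-ERCC5 on the same strand, so its counts are uncertain. XPA, the scaffold of the incision complex, had 1.97 ± 0.111 CPM per kb in H187, 2.07 ± 0.176 in H209 and 1.69 ± 0.0868 in H82, where it was among the 3 lowest. GTF2H5, the smallest TFIIH subunit, was among the 3 lowest in H187, H209 and SHP-77, at 1.94 ± 0.115, 2.28 ± 0.0390 and 1.05 ± 0.0325 CPM per kb. ERCC6 completed the low end at 1.74 ± 0.0653 CPM per kb in H82 and 0.802 ± 0.0179 in SHP-77.

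**Figure D1:**
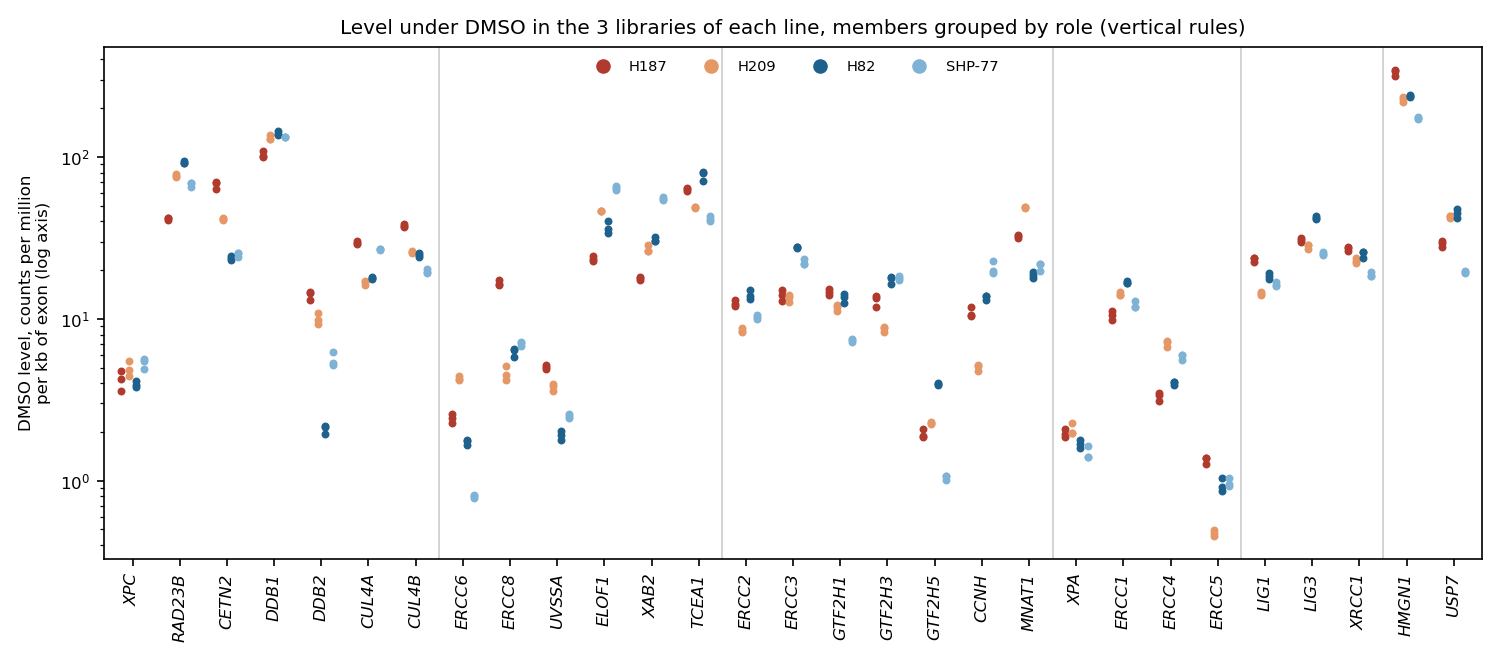
Level under DMSO of the 29 ranked members in CPM per kb of exon on a log axis; each point is 1 of the 3 libraries of a line, colours mark lines, and vertical rules separate the roles. HMGN1 and DDB1 lie at the top in all 4 lines, ERCC5, XPA and GTF2H5 near the bottom, and DDB2 and ERCC6 spread most between lines.

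Between lines the members differed to unlike extents. Over the 29 members listed for all lines, the ratio of the highest to the lowest line had a median of 2.08, and it was over 2-fold for 16 of them. This ratio was not computed over all genes, so the median and the count say nothing particular about repair genes. The widest was DDB2, the damage-binding subunit that directs the CUL4 ligase to lesions, with a ratio of 6.74. Its DMSO libraries held 26.6, 27.1 and 24.3 CPM in H187 and 19.9, 17.3 and 18.2 CPM in H209. In H82 they held 3.94, 4.03 and 3.61 CPM and in SHP-77 9.91, 11.5 and 9.58 CPM. Every ISL1-high library was thus above every ISL1-low library, and all 3 neighbouring lines in the order H187, H209, SHP-77, H82 differed past the threshold (edgeR, adjusted p of at most 4.7e-07). ERCC6, the translocase that binds stalled RNA polymerase II, was next with a ratio of 5.35. It had 25.3, 28.8 and 27.1 CPM in H187 and 47.5, 49.3 and 46.4 CPM in H209. The ISL1-low lines held 19.9, 19.5 and 18.5 CPM in H82 and 8.70, 9.10 and 8.95 CPM in SHP-77, so that again no library of one class reached into the other.

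CCNH, GTF2H5 and ERCC8, the next by ratio, followed other orders. CCNH, the cyclin of the TFIIH kinase, was highest in SHP-77 at 33.7 ± 3.07 CPM and lowest in H209 at 8.23 ± 0.388 CPM, a ratio of 4.10 (SD, n = 3 each). Every ISL1-high DMSO library of CCNH was below every ISL1-low one. CCNH shares 12.7% of its exon bases with RASA1 and 9.64% with AC018754.1, both on the opposite strand. GTF2H5 was highest in H82 at 29.6 ± 0.324 CPM and lowest in SHP-77 at 7.88 ± 0.243 CPM, a ratio of 3.75. ERCC8, the substrate receptor that tags stalled complexes for ubiquitination, was highest in H187 at 42.5 ± 1.42 CPM and lowest in H209 at 11.7 ± 1.18 CPM, a ratio of 3.62, and thus separated the ISL1-high lines from each other. Of the rest over 2-fold, CETN2 (2.85), UVSSA (2.65) and MNAT1 (2.61) had higher means in both ISL1-high lines, CETN2 and UVSSA in the order of DDB2. XAB2 (3.11), GTF2H3 (2.08) and ERCC3 (2.06) had lower means in both. At the other extreme DDB1 had a ratio of 1.35, XPC one of 1.36 and XPA one of 1.40. Of the 87 neighbouring pairs in these orders 14 did not pass the threshold, and for XPA none of the 3 did. Such pairs were not counted over all genes, so this number too says nothing particular about repair genes.

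The mean of H187 and H209 differed from that of H82 and SHP-77 under DMSO for 24 of 29 members, 13 higher and 11 lower in the ISL1-high lines, where 89% of all genes tested passed, 45.2% higher and 43.9% lower. With a share so near that of all genes, the count says nothing particular about repair genes. The mean log2 difference was 1.79 ± 0.06 for DDB2, 1.45 ± 0.04 for ERCC6, 1.12 ± 0.04 for CETN2, 1.00 ± 0.04 for MNAT1, the assembly factor of the TFIIH kinase, and 1.00 ± 0.05 for UVSSA (± SE). On the lower side it was -1.17 ± 0.05 for CCNH, -0.91 ± 0.03 for XAB2, -0.86 ± 0.04 for ERCC3, -0.74 ± 0.04 for GTF2H3 and -0.55 ± 0.04 for ELOF1. XPC, CUL4A, TCEA1, GTF2H5 and ERCC4 did not pass, with differences between -0.03 and 0.05. TCEA1 passed without H82 DMSO replicate 3 (adjusted p = 0.039). The call of LIG1, 0.08 ± 0.03, was lost without H82 DMSO replicate 2 (adjusted p = 0.075) or SHP-77 DMSO replicate 2 (0.066), and that of ERCC5, -0.25 ± 0.09, without H82 DMSO replicate 1 (0.052). Among the pairs of lines, 27 members differed between H187 and H209, where 86% of genes did, and 27 between H187 and H82, where 88.7% did. All 29 differed between H187 and SHP-77, against 88.2% of genes. The counts were 26 between H209 and H82, where 88.8% of genes passed, 27 between H209 and SHP-77, where 87.2% did, and 24 between H82 and SHP-77, where 88.9% did.

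The transcription-coupled members did not share an order. UVSSA, the protein that recruits TFIIH to the stalled polymerase, was highest in H187 at 24.4 ± 0.815 CPM, with 18.4 ± 0.892 CPM in H209, 9.23 ± 0.628 CPM in H82 and 12.2 ± 0.294 CPM in SHP-77 (SD, n = 3 each). ELOF1, an elongation factor that positions UVSSA and CSA, was highest in SHP-77 at 65.5 ± 1.82 CPM, with 24.0 ± 0.813 CPM in H187, 47.3 ± 0.179 CPM in H209 and 37.2 ± 3.29 CPM in H82. XAB2, a splicing-related protein that binds XPA and the stalled polymerase, was likewise highest in SHP-77 at 147 ± 3.39 CPM, with 47.3 ± 1.16 CPM in H187, 71.9 ± 3.55 CPM in H209 and 82.1 ± 2.86 CPM in H82. ELOF1 and XAB2 were thus both highest in SHP-77 and lowest in H187. TCEA1, the factor TFIIS that restarts backtracked polymerase, was highest in H82 at 244 ± 16.6 CPM, with 199.7 ± 4.71 CPM in H187, 154 ± 1.88 CPM in H209 and 132 ± 4.76 CPM in SHP-77. For each of these 4 genes all 3 neighbouring lines in its order differed past the threshold. Of ERCC8 the 2 intermediate lines were closest, with 17.9 ± 0.535 CPM in SHP-77 and 16.0 ± 0.913 CPM in H82 (edgeR, adjusted p = 0.034). That call was lost without H82 DMSO replicate 3 (adjusted p = 0.13), SHP-77 DMSO replicate 2 (0.079) or SHP-77 DMSO replicate 3 (0.090). STK19 had 0.729 ± 0.128 CPM in H187 and 0.963 ± 0.396 CPM in SHP-77.

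After 24 h of lurbinectedin members of the pathway were called in the ISL1-high lines and hardly in the ISL1-low lines, as were genes at large. The damage sensors DDB2 and XPC, the scaffold XPA and the ligation genes LIG1 and XRCC1 rose in both H187 and H209, while RAD23B, CUL4B, MNAT1 and USP7 fell in both. In H187, 10 of 31 members passed the threshold, 5 higher (12.2% of all genes) and 5 lower (12.7%), against 24.9% of all genes tested in either direction. In H209, 17 of 29 passed, 9 higher (22.7% of all genes) and 8 lower (22.5%), against 45.2%. In H82 edgeR called 0 of 29 against 2.92% of genes (1.55% higher, 1.38% lower), with 1 member at an unadjusted p under 0.05 and 0 called by DESeq2. In SHP-77 it called 1 of 31 against 5.19% (1.98% higher, 3.21% lower), with 3 at an unadjusted p under 0.05 and 0 called by DESeq2. The members' shares, 58.6% in H209, 32.3% in H187, 3.23% in SHP-77 and 0% in H82, followed those of all genes from line to line, so the counts show nothing particular to repair genes. Rises and falls nearly balanced, so the median log2 fold change of the members was -0.03 in H187, -0.01 in H209, 0.02 in SHP-77 and 0.01 in H82, beside medians of 0.00 over all genes in each line. In bulk RNA a change in transcripts per cell and a change in the share of cells that hold them cannot be told apart. The labels name no batch.

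The count in H187 depended on single libraries. It was 6 without lurbinectedin replicate 1, and 5 without lurbinectedin replicate 3 or without DMSO replicate 3. In SHP-77 the single call, LIG1, held without DMSO replicate 3 and was lost without any other of the 6 libraries. In H82 the count became 1 without DMSO replicate 3, the member being XRCC1.

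**Figure D2:**
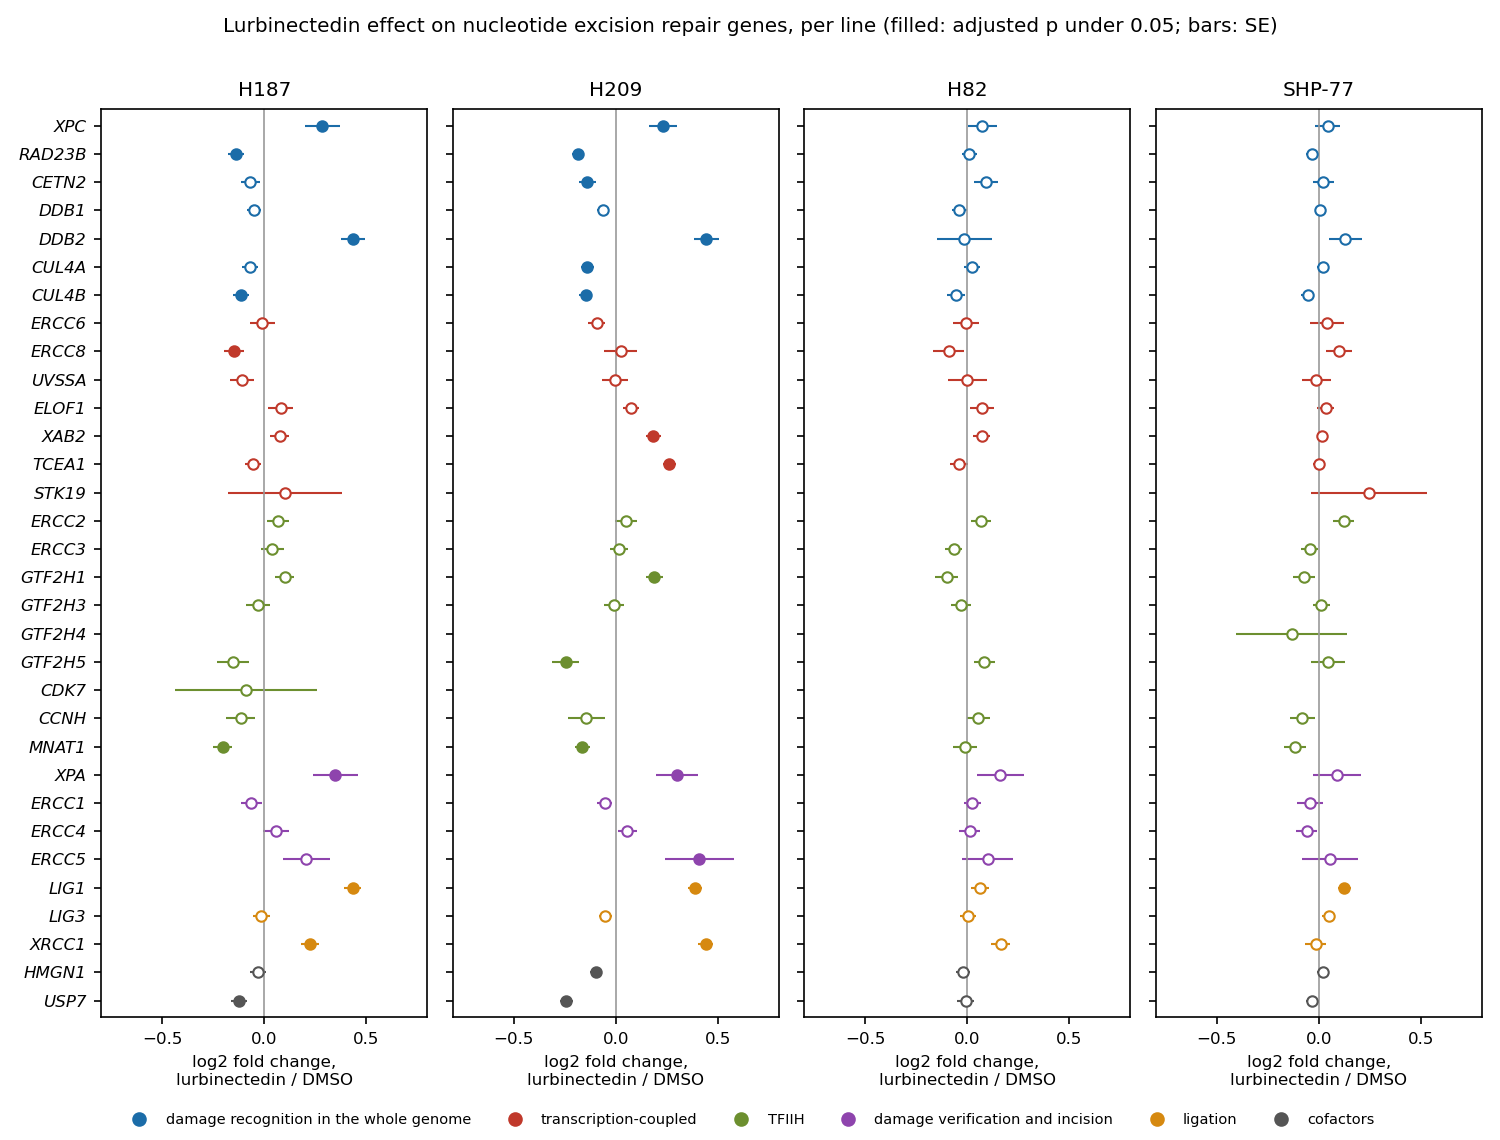
Log2 fold change of lurbinectedin over DMSO for each member in each line, ordered by role, with SE bars and filled points for an adjusted p under 0.05. Filled points lie on both sides of 0 in H187 and H209, H82 has none, and SHP-77 has LIG1 alone.

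Promoters are given for 4 members whose transcripts moved in opposite directions: DDB2, LIG1 and XPC, which rose in H187 and H209, and RAD23B, which fell in both. Windows run from 250 bases before to 50 bases after the annotated start, 5′ to 3′ on the gene's strand, in RefSeq's annotation of GRCh38.p14. They lie at chr11:47214724-47215023 on the plus strand for DDB2, chr19:48170295-48170594 on the minus strand for LIG1, chr3:14178552-14178851 on the minus strand for XPC and chr9:107283029-107283328 on the plus strand for RAD23B. DDB2 has 2 annotated starts and RAD23B has 3, and the one nearest the start of the deposited gene model is shown. Capitals mark matches to the p53 half-site in DDB2 and to an E2F site (TTTCCCGC) in LIG1 and XPC.
DDB2: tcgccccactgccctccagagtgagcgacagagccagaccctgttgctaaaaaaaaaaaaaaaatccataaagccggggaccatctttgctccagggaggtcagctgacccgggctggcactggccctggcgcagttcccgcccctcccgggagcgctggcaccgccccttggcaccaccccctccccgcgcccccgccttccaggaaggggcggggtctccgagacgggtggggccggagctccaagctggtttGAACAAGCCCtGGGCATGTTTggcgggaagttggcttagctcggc
LIG1: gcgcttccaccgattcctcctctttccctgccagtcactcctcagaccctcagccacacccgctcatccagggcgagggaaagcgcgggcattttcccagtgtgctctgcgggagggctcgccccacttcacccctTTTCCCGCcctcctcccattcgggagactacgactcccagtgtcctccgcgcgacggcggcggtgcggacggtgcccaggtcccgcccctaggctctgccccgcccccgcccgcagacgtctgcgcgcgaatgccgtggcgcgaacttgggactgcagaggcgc
XPC: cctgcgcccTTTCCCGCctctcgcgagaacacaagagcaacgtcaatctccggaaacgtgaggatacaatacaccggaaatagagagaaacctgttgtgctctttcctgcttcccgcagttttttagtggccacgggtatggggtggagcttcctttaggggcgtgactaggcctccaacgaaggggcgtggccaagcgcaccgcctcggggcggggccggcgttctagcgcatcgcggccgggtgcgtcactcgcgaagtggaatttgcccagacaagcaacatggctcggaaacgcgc
RAD23B: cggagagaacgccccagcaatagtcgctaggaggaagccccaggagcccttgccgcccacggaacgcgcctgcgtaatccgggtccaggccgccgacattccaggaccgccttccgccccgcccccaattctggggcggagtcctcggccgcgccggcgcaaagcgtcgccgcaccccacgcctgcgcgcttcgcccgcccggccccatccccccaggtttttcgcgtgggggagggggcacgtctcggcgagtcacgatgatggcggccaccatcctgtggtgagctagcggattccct

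The DDB2 window held 2 p53 half-sites, which begin at bases 6 and 17 of the transcript. In LIG1 the E2F match began at position -114 from the start, and in XPC at position -241. RAD23B held neither. Both strands were searched, and the motifs were chosen after the values had been seen. An E2F site (TTTCCCGC, TTTCGCGC, TTTGCCGC or TTTGGCGC) was found in 3 of the 31 members with a window in the table, CUL4A, LIG1 and XPC, and in 3.31% of 35116 windows of the same length. A p53 half-site was found in 1 member, DDB2, and in 6.63% of all windows. Of the 5 members that rose in both ISL1-high lines, XPA and XRCC1 held neither of these motifs. The 4 members that fell in both lines held neither as well. CUL4A, with an E2F site, was called lower in H209. A relation of these motifs to the direction of change was not tested. The CCAAT box was found in 13 members and 34.6% of all windows, and the GC box GGGCGG in 26 members and 45.0%. A member counts here if any of its windows holds the motif, while the shares are per window, so the counts and shares are not on the same footing. These matches describe the letters of the windows only.

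Among the 7 genes of genome-wide damage recognition, those called in the ISL1-high lines were the lesion binders, higher, and ubiquitin ligase scaffolds and XPC partners, lower. In H187 DDB2 and XPC were called higher and RAD23B and CUL4B lower. In H209 DDB2 and XPC were called higher, and RAD23B, CUL4B, CUL4A and CETN2 lower. None of the 7 was called by edgeR in H82 or SHP-77, where 0 had an unadjusted p under 0.05 and DESeq2 called 0.

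DDB2 rose in both ISL1-high lines. In H187 it had 36.1, 35.1 and 33.9 CPM in lurbinectedin libraries, against 26.6, 27.1 and 24.3 CPM in DMSO libraries, a log2 fold change of 0.43 ± 0.06 (SE, edgeR, adjusted p = 8.1e-06). In H209 it had 24.9, 26.1 and 23.8 CPM in lurbinectedin libraries, against 19.9, 17.3 and 18.2 CPM in DMSO libraries, a change of 0.44 ± 0.06 (adjusted p = 6.9e-08). Every treated library was above every DMSO library of its line. In the ISL1-low lines the treatments overlapped. In H82 DDB2 had 4.41, 3.67 and 3.33 CPM with the drug, against 3.94, 4.03 and 3.61 CPM with DMSO, a change of -0.02 ± 0.14 (adjusted p = 0.97). SHP-77 gave 11.4, 10.6 and 11.8 CPM with the drug, against 9.91, 11.5 and 9.58 CPM with DMSO, a change of 0.13 ± 0.08 (adjusted p = 0.45). H82 thus had the lowest DDB2 level of the 4 lines under both treatments, with no change past the threshold.

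XPC, which binds the strand opposite a lesion and starts repair in untranscribed DNA, rose less and with more spread. In H187 it had 21.1, 18.6 and 19.2 CPM in lurbinectedin libraries, against 16.4, 18.4 and 13.9 CPM in DMSO libraries, a change of 0.28 ± 0.09 (adjusted p = 0.019), with the lowest treated library just above the highest DMSO library. In H209 it had 24.0, 22.2 and 20.7 CPM in lurbinectedin libraries, against 18.7, 21.3 and 17.1 CPM in DMSO libraries, a change of 0.23 ± 0.07 (adjusted p = 0.0044), with 1 DMSO library above a treated one. The adjusted p was 0.096 in H187 without DMSO replicate 3 and 0.10 without lurbinectedin replicate 1. In H209 it was 0.069 without DMSO replicate 3 and 0.069 without lurbinectedin replicate 1, so each call rests on these libraries. In H82 XPC had 14.6, 17.3 and 16.0 CPM with the drug, against 15.1, 14.7 and 15.9 CPM with DMSO, a change of 0.07 ± 0.07. SHP-77 had 22.5, 20.5 and 20.9 CPM with the drug, against 19.0, 22.0 and 21.2 CPM with DMSO, a change of 0.04 ± 0.06. Neither passed, and the treatments overlapped in both. XPC shares 23.8% of its exon bases with a gene on the opposite strand (AC093495.1), and whether the counting used strand is not given in the sources used here.

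RAD23B fell in the lines in which XPC rose. In H187 it had 167, 168 and 165 CPM in lurbinectedin libraries, against 185, 181 and 186 CPM in DMSO libraries, a change of -0.14 ± 0.04 (adjusted p = 0.010). In H209 it had 295, 294 and 302 CPM in lurbinectedin libraries, against 346, 334 and 337 CPM in DMSO libraries, a change of -0.18 ± 0.03 (adjusted p = 1.3e-06). The treatments did not overlap in either line, and the H187 call was lost without lurbinectedin replicate 3 (adjusted p = 0.065). In H82 RAD23B had 399.8, 421 and 416 CPM with the drug, against 406, 409 and 421 CPM with DMSO, a change of 0.01 ± 0.04. In SHP-77 it had 288, 294 and 302 CPM with the drug, against 308, 307 and 289.9 CPM with DMSO, a change of -0.03 ± 0.03. Both lines showed overlapping treatments.

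CUL4B and CUL4A are the cullin scaffolds that carry DDB1 and its receptors. In H187 CUL4B had 199.5, 209.1 and 201 CPM in lurbinectedin libraries, against 219.8, 216 and 227 CPM in DMSO libraries, a change of -0.12 ± 0.04 (adjusted p = 0.032). In H209 CUL4B had 136, 137 and 135 CPM in lurbinectedin libraries, against 154, 149.7 and 151 CPM in DMSO libraries, a change of -0.15 ± 0.03 (adjusted p = 0.00016). Treated libraries were below all DMSO libraries in both lines. The H187 call did not pass without lurbinectedin replicate 1 (adjusted p = 0.12), lurbinectedin replicate 3 (0.14), DMSO replicate 1 (0.053) or DMSO replicate 3 (0.057). The authors' edgeR FDR for CUL4B in H187 was 0.058, also not past the threshold. In H82 CUL4B had 132, 148 and 137 CPM with the drug, against 149.7, 145 and 141 CPM with DMSO, a change of -0.06 ± 0.04. SHP-77 had 111.1, 112.87 and 109.1 CPM with the drug, against 112.92, 113.6 and 119.5 CPM with DMSO, a change of -0.05 ± 0.03. The treated SHP-77 libraries were thus also below the DMSO libraries, by a narrow margin. Neither ISL1-low line passed.

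In H209 CUL4A had 107, 112 and 105 CPM in lurbinectedin libraries, against 123, 120.3 and 115 CPM in DMSO libraries, a change of -0.14 ± 0.03 (adjusted p = 0.00050), with no overlap. Its change was -0.07 ± 0.04 in H187, 0.02 ± 0.04 in H82 and 0.02 ± 0.03 in SHP-77, none past the threshold. In H209 CETN2 had 40.9, 40.2 and 39.6 CPM in lurbinectedin libraries, against 44.0, 45.3 and 44.5 CPM in DMSO libraries, a change of -0.14 ± 0.04 (adjusted p = 0.0051), again with no overlap. Its change was -0.07 ± 0.05 in H187, 0.09 ± 0.06 in H82 and 0.02 ± 0.05 in SHP-77, not past the threshold. DDB1 did not pass in any line, and came closest in H209 with -0.06 ± 0.03 (adjusted p = 0.051). There its call appeared without DMSO replicate 2 (adjusted p = 0.035), DMSO replicate 3 (0.038) or lurbinectedin replicate 2 (0.024).

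Of the transcription-coupled members 1 of 7 passed in H187, ERCC8 lower, against 9 of the 24 other members and 24.9% of all genes. In H209, 2 of 6 passed, TCEA1 and XAB2 higher, against 15 of the 23 others and 45.2% of all genes. In H82 edgeR called 0 of 6 and 0 of 23, with 0 and 1 at an unadjusted p under 0.05 and 0 in each set by DESeq2. In SHP-77 it called 0 of 7 and 1 of 24, with 0 and 3 at an unadjusted p under 0.05 and 0 by DESeq2. The median log2 fold change was -0.01 for the transcription-coupled members and -0.03 for the others in H187, 0.05 and -0.05 in H209, -0.00 and 0.01 in H82, and 0.03 and 0.01 in SHP-77. No test of one set of genes against the other was made.

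ERCC6 did not pass in any line. In H187 ERCC6 had 25.4, 28.8 and 26.02 CPM in lurbinectedin libraries, against 25.3, 28.8 and 27.1 CPM in DMSO libraries, a change of -0.01 ± 0.06 (adjusted p = 0.94). In H209 ERCC6 had 45.3, 45.1 and 43.2 CPM in lurbinectedin libraries, against 47.5, 49.3 and 46.4 CPM in DMSO libraries, a change of -0.09 ± 0.04 (adjusted p = 0.060). The treated H209 libraries were all below the DMSO libraries, and without DMSO replicate 3 the adjusted p was 0.039. In H82 ERCC6 had 19.7, 18.1 and 19.5 CPM with the drug, against 19.9, 19.5 and 18.5 CPM with DMSO, a change of -0.01 ± 0.06. SHP-77 had 8.38, 8.95 and 10.1 CPM with the drug, against 8.70, 9.10 and 8.95 CPM with DMSO, a change of 0.04 ± 0.08. Treatments overlapped in both ISL1-low lines.

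ERCC8 passed in H187 alone, with 37.7, 39.7 and 37.3 CPM in lurbinectedin libraries, against 42.1, 41.3 and 44.1 CPM in DMSO libraries, a change of -0.15 ± 0.05 (adjusted p = 0.031) and no overlap. Leaving out lurbinectedin replicate 1 (0.11), lurbinectedin replicate 3 (0.15), DMSO replicate 1 (0.052) or DMSO replicate 3 (0.085) raised that adjusted p past the threshold. In H209 ERCC8 had 11.9, 11.7 and 12.2 CPM with the drug, against 10.7, 13.0 and 11.5 CPM with DMSO, a change of 0.02 ± 0.08. H82 gave 13.3, 16.4 and 14.9 CPM with the drug, against 16.4, 16.6 and 14.9 CPM with DMSO, a change of -0.09 ± 0.08. In SHP-77 the values were 17.6, 20.7 and 19.2 CPM with the drug, against 17.3, 18.1 and 18.3 CPM with DMSO, a change of 0.10 ± 0.06. The treatments overlapped in these 3 lines. ERCC8 shares 28.3% of its exon bases with GNL3LP1 on the same strand, which makes its counts uncertain.

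TCEA1 and XAB2 were the transcription-coupled genes that rose in H209. TCEA1 had 188, 186 and 178 CPM in lurbinectedin libraries, against 156, 155 and 152 CPM in DMSO libraries there, a change of 0.26 ± 0.03 (adjusted p = 5.4e-09), with no overlap. In H187 it had 185, 198 and 192 CPM with the drug, against 201, 194 and 203 CPM with DMSO, a change of -0.06 ± 0.04 (adjusted p = 0.33). The 2 ISL1-high lines thus had opposite signs, of which only that of H209 passed. In H82 TCEA1 had 239, 238 and 230.1 CPM with the drug, against 255, 252 and 225 CPM with DMSO, a change of -0.04 ± 0.04. SHP-77 had 130.3, 133 and 131 CPM with the drug, against 131, 127 and 137 CPM with DMSO, a change of 0.00 ± 0.03. Neither moved past the spread of its libraries.

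In H209 XAB2 had 82.1, 79.1 and 82.2 CPM in lurbinectedin libraries, against 76.0, 69.8 and 69.9 CPM in DMSO libraries, a change of 0.18 ± 0.04 (adjusted p = 5.9e-05), and every treated library was above every DMSO library. H187 gave 50.9, 48.0 and 50.3 CPM with the drug, against 48.4, 47.5 and 46.1 CPM with DMSO, a change of 0.08 ± 0.05. That difference did not pass and the treatments overlapped. In H82 XAB2 had 87.4, 83.9 and 85.6 CPM with the drug, against 80.6, 80.3 and 85.4 CPM with DMSO, a change of 0.07 ± 0.04. In SHP-77 it had 149, 146 and 152 CPM with the drug, against 151, 145 and 146 CPM with DMSO, a change of 0.02 ± 0.03. Overlap was seen in both.

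UVSSA and ELOF1 did not pass in any line. In H187 UVSSA had 22.2, 22.2 and 23.4 CPM in lurbinectedin libraries, against 23.6, 25.2 and 24.5 CPM in DMSO libraries, a change of -0.11 ± 0.06 (adjusted p = 0.19), with every treated library below the DMSO libraries. In H209 it had 17.9, 18.7 and 18.1 CPM with the drug, against 18.5, 17.5 and 19.2 CPM with DMSO, a change of -0.01 ± 0.06. H82 held 9.48, 8.06 and 9.99 CPM with the drug, against 9.23, 8.60 and 9.86 CPM with DMSO, a change of -0.00 ± 0.09. The treatments overlapped in H209 and H82. SHP-77 held 11.5, 12.7 and 12.0 CPM with the drug, against 11.9, 12.5 and 12.2 CPM with DMSO, a change of -0.01 ± 0.07, again with overlap. In H209 ELOF1 had 50.7, 49.6 and 48.4 CPM in lurbinectedin libraries, against 47.2, 47.5 and 47.2 CPM in DMSO libraries, a change of 0.07 ± 0.04 (adjusted p = 0.13), with every treated library above the DMSO libraries. H187 had 26.7, 24.2 and 25.3 CPM with the drug, against 24.9, 23.3 and 23.9 CPM with DMSO for ELOF1, a change of 0.08 ± 0.06. H82 had 39.8, 37.6 and 39.2 CPM with the drug, against 36.5, 34.3 and 40.8 CPM with DMSO for it, a change of 0.07 ± 0.06. SHP-77 had 65.6, 66.0 and 69.1 CPM with the drug, against 67.3, 65.6 and 63.6 CPM with DMSO, a change of 0.03 ± 0.04. Overlap was again seen in these 3 lines. In H187 STK19 had 0.712, 0.678 and 0.947 CPM with the drug, against 0.869, 0.699 and 0.619 CPM with DMSO, a change of 0.10 ± 0.28. Its values in SHP-77 were 1.44, 1.09 and 0.890 CPM with the drug, against 1.37, 0.941 and 0.578 CPM with DMSO, a change of 0.25 ± 0.28. With so few counts a change of this gene was not detectable at this depth.

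Of the TFIIH genes, 1 of 8 listed passed in H187 (24.9% of all genes) and 3 of 7 in H209 (45.2%), and edgeR and DESeq2 called 0 in H82 and 0 in SHP-77, with 0 and 2 at an unadjusted p under 0.05. The helicase genes ERCC2 and ERCC3 did not pass in any line, with changes between -0.07 and 0.12. MNAT1 fell in both ISL1-high lines. In H187 it had 38.5, 39.0 and 38.8 CPM in lurbinectedin libraries, against 45.5, 45.1 and 43.8 CPM in DMSO libraries, a change of -0.20 ± 0.05 (adjusted p = 0.0026). In H209 it had 59.3, 60.5 and 60.2 CPM in lurbinectedin libraries, against 68.0, 67.1 and 67.6 CPM in DMSO libraries, a change of -0.16 ± 0.04 (adjusted p = 0.00020). The DMSO and treated libraries did not overlap in either. In H82 MNAT1 had 26.9, 24.5 and 25.1 CPM with the drug, against 25.9, 27.1 and 24.6 CPM with DMSO, a change of -0.01 ± 0.06. SHP-77 gave 26.7, 28.0 and 26.04 CPM with the drug, against 27.2, 30.3 and 30.03 CPM with DMSO, a change of -0.12 ± 0.05 (adjusted p = 0.27). Neither passed. Its partner CCNH had changes of -0.12 ± 0.07 in H187 and -0.14 ± 0.09 in H209, of similar size but not past the threshold (adjusted p = 0.25 and 0.20). CDK7, the third subunit of that kinase, had a change of -0.09 ± 0.35 in H187.

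GTF2H1, the TFIIH subunit that contacts XPC and UVSSA, passed in H209, with 44.7, 48.5 and 47.2 CPM in lurbinectedin libraries, against 41.9, 42.5 and 39.1 CPM in DMSO libraries, a change of 0.19 ± 0.04 (adjusted p = 0.00037). Its change was 0.10 ± 0.05 in H187, -0.10 ± 0.05 in H82 and -0.07 ± 0.05 in SHP-77, none past the threshold. GTF2H5, which stabilises TFIIH and stimulates its helicase, moved the other way in H209, with 14.3, 14.7 and 14.0 CPM in lurbinectedin libraries, against 16.8, 17.4 and 16.9 CPM in DMSO libraries, a change of -0.25 ± 0.07 (adjusted p = 0.0022). Neither gene's treatments overlapped there. GTF2H5 had a change of -0.15 ± 0.08 in H187 (adjusted p = 0.16), 0.08 ± 0.05 in H82 and 0.04 ± 0.08 in SHP-77. GTF2H3 had changes between -0.03 and 0.01 in the 4 lines and GTF2H4 one of -0.13 ± 0.27 in SHP-77.

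Of the 4 genes of verification and incision, XPA passed in both ISL1-high lines and ERCC5 in H209. In H187 XPA had 6.56, 8.08 and 7.14 CPM in lurbinectedin libraries, against 5.46, 6.09 and 5.68 CPM in DMSO libraries, a change of 0.35 ± 0.11 (adjusted p = 0.027). In H209 XPA had 7.42, 7.72 and 7.04 CPM in lurbinectedin libraries, against 5.74, 5.74 and 6.63 CPM in DMSO libraries, a change of 0.30 ± 0.10 (adjusted p = 0.013). The treatments did not overlap in either line, but both calls depended on single libraries. In H187 the adjusted p was 0.15 without lurbinectedin replicate 2, 0.054 without lurbinectedin replicate 3, 0.077 without DMSO replicate 1 and 0.054 without DMSO replicate 3. In H209 it was 0.053 without lurbinectedin replicate 2 and 0.065 without DMSO replicate 2. In H82 XPA had 4.90, 6.15 and 5.37 CPM with the drug, against 5.18, 4.91 and 4.67 CPM with DMSO, a change of 0.16 ± 0.12. SHP-77 gave 4.26, 4.87 and 4.66 CPM with the drug, against 4.07, 4.08 and 4.78 CPM with DMSO, a change of 0.09 ± 0.12. Both overlapped.

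In H209 ERCC5 had 2.58, 2.62 and 2.55 CPM in lurbinectedin libraries, against 1.87, 2.04 and 1.93 CPM in DMSO libraries, a change of 0.41 ± 0.17 (adjusted p = 0.045), on 50 to 84 counts per library. This call was lost without any single library of the 6, with adjusted p-values of 0.063 to 0.098. Its change was 0.21 ± 0.12 in H187, 0.10 ± 0.13 in H82 and 0.06 ± 0.14 in SHP-77, not past the threshold. The nuclease pair ERCC1 and ERCC4 did not pass in any line. In H209 ERCC1 had 51.9, 51.5 and 52.4 CPM in lurbinectedin libraries, against 55.6, 53.8 and 53.5 CPM in DMSO libraries, with every treated library below the DMSO libraries and a change of -0.06 ± 0.04 (adjusted p = 0.25). With a correction for GC content the change was -0.10 and passed (adjusted p = 0.025). The changes of ERCC1 lay between -0.06 and 0.03 and those of ERCC4 between -0.06 and 0.06. Both share exon bases with a gene on the opposite strand, 28.6% of ERCC1 with CD3EAP and 25.7% of ERCC4 with AC010401.1.

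Of the 3 ligation genes LIG1 and XRCC1 rose in both ISL1-high lines and LIG3 did not pass. LIG1, the ligase that joins Okazaki fragments and seals repair patches in dividing cells, was the only member called in 3 lines. In H187 LIG1 had 149, 143 and 147 CPM in lurbinectedin libraries, against 105, 111 and 111 CPM in DMSO libraries, a change of 0.43 ± 0.04 (adjusted p = 1.6e-07). In H209 LIG1 had 87.4, 87.3 and 86.3 CPM in lurbinectedin libraries, against 66.8, 65.8 and 67.9 CPM in DMSO libraries, a change of 0.39 ± 0.03 (adjusted p = 7.6e-13). In SHP-77 LIG1 had 84.0, 82.1 and 82.7 CPM in lurbinectedin libraries, against 75.9, 74.1 and 78.3 CPM in DMSO libraries, a change of 0.12 ± 0.03 (adjusted p = 0.030). Every treated library was above every DMSO library in these 3 lines, and the SHP-77 change was the smallest. H82 had 86.5, 91.9 and 88.5 CPM with the drug, against 85.7, 82.5 and 89.3 CPM with DMSO, a change of 0.06 ± 0.04 (adjusted p = 0.50). The SHP-77 call did not pass without lurbinectedin replicate 1 (adjusted p = 0.18), lurbinectedin replicate 2 (0.062), lurbinectedin replicate 3 (0.099), DMSO replicate 1 (0.064) or DMSO replicate 2 (0.17).

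XRCC1, the scaffold that holds LIG3 at breaks, rose in H187 with 67.1, 66.0 and 66.0 CPM in lurbinectedin libraries, against 54.9, 58.2 and 57.9 CPM in DMSO libraries, a change of 0.22 ± 0.04 (adjusted p = 0.00056). In H209 XRCC1 had 65.2, 64.3 and 66.1 CPM in lurbinectedin libraries, against 50.2, 46.8 and 48.1 CPM in DMSO libraries, a change of 0.44 ± 0.04 (adjusted p = 2.8e-13). Treated libraries were above DMSO libraries throughout. H82 also had no overlap, with 58.8, 59.9 and 57.4 CPM with the drug, against 49.7, 54.3 and 54.2 CPM with DMSO, a change of 0.16 ± 0.05 that did not pass (adjusted p = 0.060). It did pass there without DMSO replicate 3 (adjusted p = 0.013), and the authors' deposited table gives it a log2 fold change of 0.16 with an FDR of 0.0399. SHP-77 had 38.6, 38.0 and 39.7 CPM with the drug, against 38.7, 40.7 and 38.4 CPM with DMSO, a change of -0.02 ± 0.05. LIG3, the partner of XRCC1, did not pass in any line, with changes of -0.02 ± 0.04 in H187, -0.05 ± 0.03 in H209, 0.05 ± 0.03 in SHP-77 and 0.00 ± 0.04 in H82. On the opposite strand XRCC1 overlaps L34079.3 over 15.5% of its exon bases, and LIG3 overlaps RFFL over 29.1%. On the same strand XRCC1 overlaps L34079.1 over 6.48%, so part of its counts is uncertain.

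The cofactors fell or did not pass. USP7 is a deubiquitinase that UVSSA brings to stalled complexes and that protects CSB. In H187 USP7 had 159, 156 and 157 CPM in lurbinectedin libraries, against 164, 175 and 178 CPM in DMSO libraries, a change of -0.12 ± 0.04 (adjusted p = 0.031). In H209 USP7 had 216, 212 and 208 CPM in lurbinectedin libraries, against 254, 248 and 254 CPM in DMSO libraries, a change of -0.24 ± 0.03 (adjusted p = 1.1e-08). Treated libraries were below DMSO libraries in both lines. In H187 the call was lost without any 1 of 5 libraries, with adjusted p-values of 0.060 without lurbinectedin replicate 1, 0.063 without DMSO replicate 3, 0.091 without DMSO replicate 2, 0.10 without lurbinectedin replicate 2 and 0.10 without lurbinectedin replicate 3. The authors' edgeR FDR for USP7 in H187 was 0.052, also not past the threshold. In H82 USP7 had 252, 270.0 and 263 CPM with the drug, against 265, 248.8 and 281 CPM with DMSO, a change of -0.01 ± 0.04. In SHP-77 it had 112.4, 113.5 and 112.9 CPM with the drug, against 114.0, 117.4 and 115.5 CPM with DMSO, a change of -0.03 ± 0.03. The treated SHP-77 libraries were thus all below the DMSO libraries too. Neither passed. In H209 HMGN1 had 278, 277 and 269 CPM in lurbinectedin libraries, against 305, 297 and 284 CPM in DMSO libraries, a change of -0.10 ± 0.03 (adjusted p = 0.0086). This call was lost without lurbinectedin replicate 3 (adjusted p = 0.067) or DMSO replicate 1 (0.058). HMGN1 had a change of -0.03 ± 0.04 in H187, -0.02 ± 0.04 in H82 and 0.02 ± 0.03 in SHP-77.

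**Figure D3:**
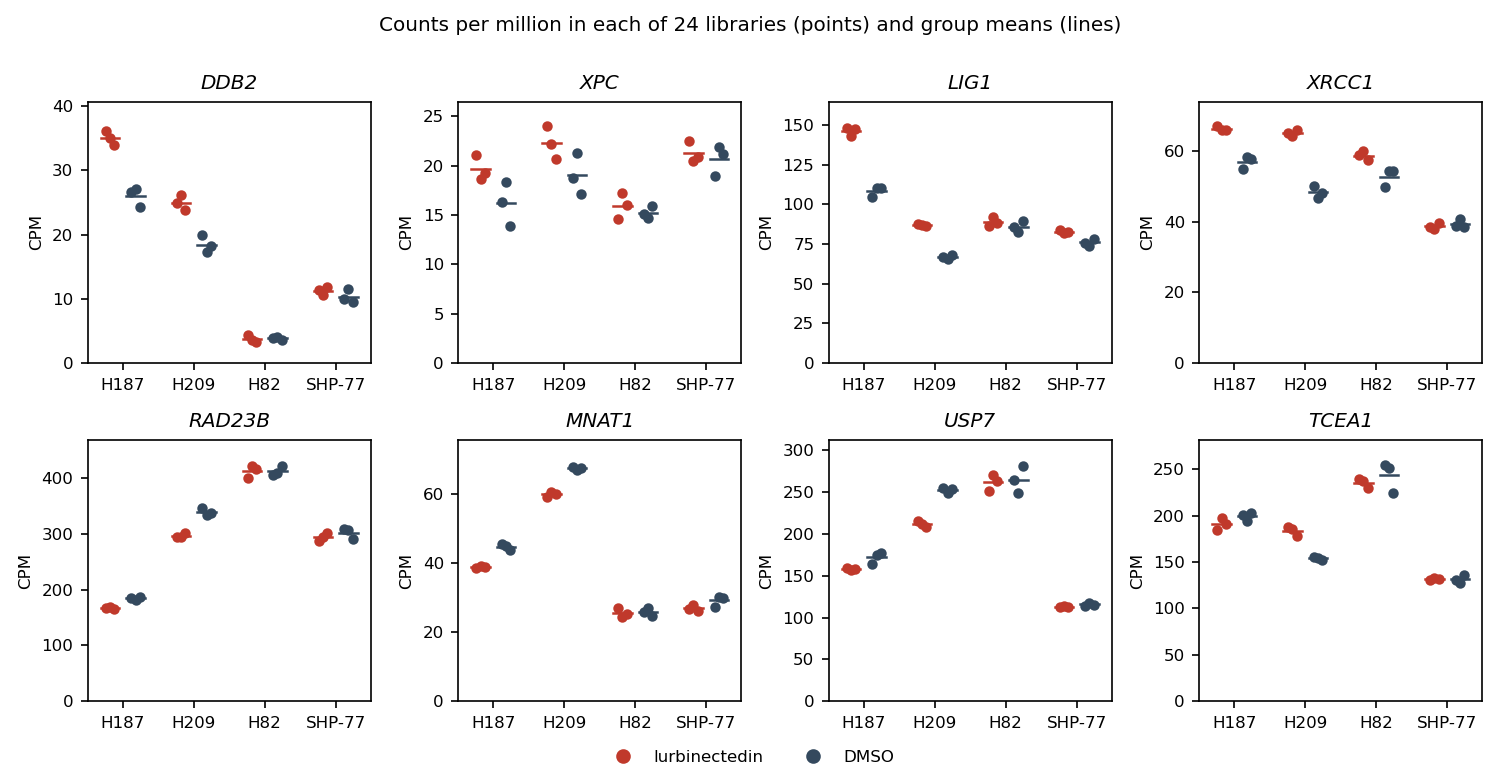
Levels in CPM of 8 members in each of the 24 libraries, lurbinectedin left of DMSO within each line, with lines at the group means and axes from 0. DDB2, LIG1 and XRCC1 are higher with lurbinectedin in H187 and H209, RAD23B, MNAT1 and USP7 lower, and TCEA1 is higher in H209 alone.

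Few members passed in the ISL1-low lines, where 2.92% of all genes did in H82 and 5.19% in SHP-77. In H82 the members with the smallest adjusted p after XRCC1 were GTF2H1 (-0.10 ± 0.05), XAB2 (0.07 ± 0.04), ERCC3 (-0.07 ± 0.04), CETN2 (0.09 ± 0.06) and GTF2H5 (0.08 ± 0.05), none past the threshold. In SHP-77 those after LIG1 were ERCC2 (0.12 ± 0.05), MNAT1 (-0.12 ± 0.05), CUL4B (-0.05 ± 0.03), DDB2 (0.13 ± 0.08) and ERCC8 (0.10 ± 0.06). GTF2H1 in H82 had 45.5, 45.2 and 40.7 CPM with the drug, against 47.8, 49.9 and 44.1 CPM with DMSO, with overlap. ERCC3 had 80.8, 79.8 and 77.1 CPM with the drug, against 83.9, 84.1 and 82.3 CPM with DMSO in the same line, where every treated library was below the DMSO libraries. CETN2 there had 25.6, 29.4 and 26.4 CPM with the drug, against 26.4, 24.9 and 25.5 CPM with DMSO, and the treatments overlapped. They overlapped for GTF2H5 too, which had 32.5, 29.4 and 31.6 CPM with the drug, against 29.9, 29.6 and 29.3 CPM with DMSO in H82. In SHP-77 ERCC2 had 32.0, 35.5 and 33.7 CPM with the drug, against 30.2, 31.1 and 31.7 CPM with DMSO, with every treated library above the DMSO libraries. Over all members the changes ran from -0.10 to 0.16 in H82 and, among those listed for all lines, from -0.12 to 0.13 in SHP-77.

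Most H187 calls fell on members also called in H209, and about as many H209 calls were shared as were not. Of the 10 called in H187, 9 were called in H209, which is 90% of the H187 calls and 52.9% of the 17 H209 calls. All 9 had the same direction, 5 higher and 4 lower. Over all genes listed for both lines 74.6% of the H187 calls were called in H209 and 40.1% of the H209 calls in H187, and 96.9% of the shared calls had the same direction. Of the 8 members called in H209 only, 7 had the same sign in H187, the exception being TCEA1. Across the 29 members listed for both, the log2 fold changes had a Pearson r of 0.870 and a Spearman rho of 0.860, and across all 13042 genes listed for both a Pearson r of 0.616. For the other pairs of lines Pearson's r over the members ran from 0.295 to 0.511. These correlations are across genes, which are not independent replicates, and describe the tables. The H209 change was the larger in size for 5 of the 9 members called in both, and the difference between the 2 lines was not tested. Over all lines 14 of 32 members were called in none, 9 in 1, 8 in 2, 1 in 3 and 0 in 4. The same count was not made over all genes, so it says nothing particular about repair genes.

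**Figure D4:**
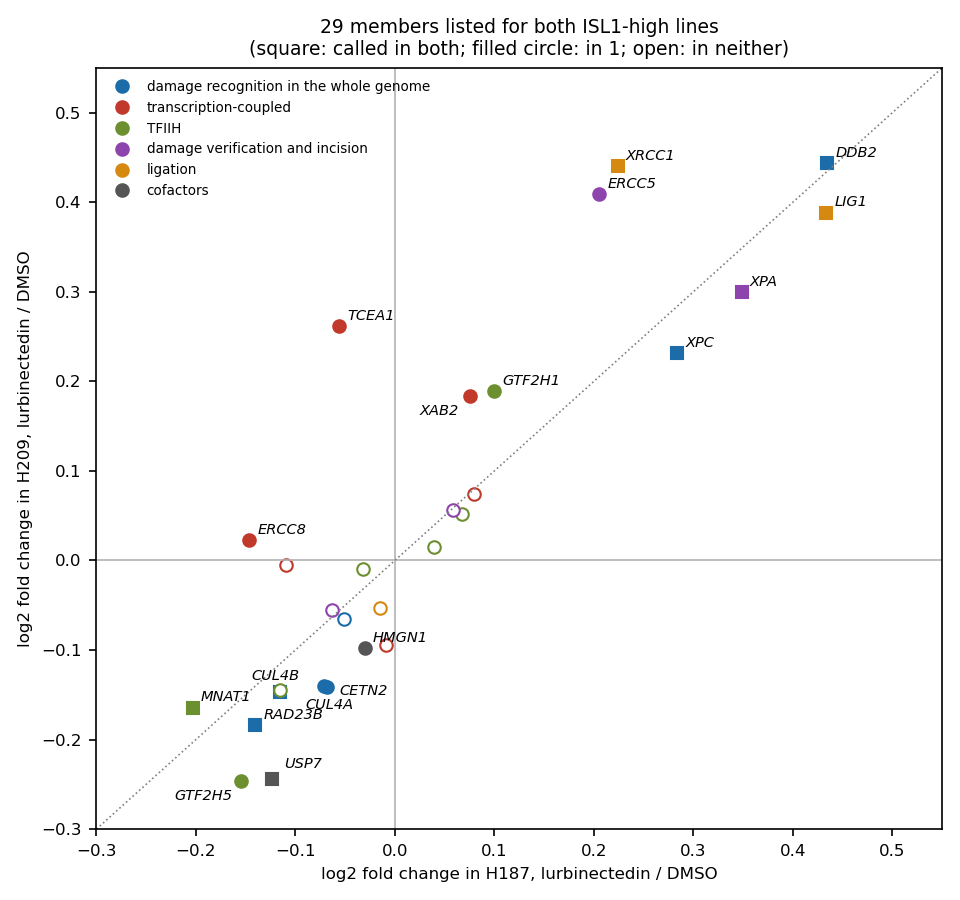
Log2 fold change in H209 against that in H187 for the 29 members listed for both, coloured by role; squares are called in both lines, filled circles in 1 and open circles in neither, and the dotted line marks equal change. Points follow the dotted line, TCEA1 lies above it at a change of 0.26 in H209, and XRCC1 and ERCC5 are larger in H209.

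The difference in response was tested directly, by subtracting the mean effect of the ISL1-low pair of lines from that of the ISL1-high pair. 11 of 29 members passed, 5 higher (15.7% of all genes) and 6 lower (15.9%), against 31.6% of 11408 genes tested, so the share among repair genes was near that of all genes. The response was more positive in the ISL1-high lines for LIG1 by 0.32 ± 0.04 (adjusted p = 9.7e-09), DDB2 by 0.38 ± 0.09 (adjusted p = 0.00086), XRCC1 by 0.26 ± 0.04 (adjusted p = 6.6e-06), GTF2H1 by 0.23 ± 0.05 (adjusted p = 0.00067) and TCEA1 by 0.12 ± 0.04 (adjusted p = 0.014). Of the changes that enter this TCEA1 difference that of H209 passed, and that of H187 was negative. The response was more negative for GTF2H5 at -0.26 ± 0.07 (adjusted p = 0.0020), USP7 at -0.16 ± 0.04 (adjusted p = 0.00073), CETN2 at -0.16 ± 0.05 (adjusted p = 0.0079), RAD23B at -0.15 ± 0.03 (adjusted p = 0.00031), CUL4A at -0.13 ± 0.03 (adjusted p = 0.0033) and MNAT1 at -0.12 ± 0.05 (adjusted p = 0.042). The MNAT1 call was lost without any 1 of 17 libraries of the 24, at adjusted p-values of 0.053 to 0.10. Of the transcription-coupled members 1 of 6 passed, TCEA1, against 10 of the 23 others.

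Some members called in both ISL1-high lines did not differ past the threshold from the ISL1-low lines. XPC had a difference of 0.20 ± 0.08 (adjusted p = 0.066), XPA one of 0.20 ± 0.11 (adjusted p = 0.17) and CUL4B one of -0.08 ± 0.04 (adjusted p = 0.11). For XPC the difference passed without any 1 of 6 libraries, H187 DMSO replicate 2, H187 lurbinectedin replicate 2, H209 DMSO replicate 2, H209 lurbinectedin replicate 3, H82 lurbinectedin replicate 2 and SHP-77 DMSO replicate 1, at adjusted p-values of 0.019 to 0.049. CUL4B passed without H82 lurbinectedin replicate 1 (adjusted p = 0.046), XAB2 without H209 DMSO replicate 1 (0.029), HMGN1 without H187 DMSO replicate 3 (0.039) and ERCC3 without H187 DMSO replicate 1 (0.048). The differences of ERCC6, ERCC8, UVSSA and ELOF1 were -0.07 ± 0.06, -0.07 ± 0.07, -0.05 ± 0.07 and 0.02 ± 0.05.

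Gene length moved with the response over all genes, and the members were mostly of middling length. Among all genes the median log2 fold change of those spanning over 300 kb was -0.40 in H187, -0.44 in H209, -0.19 in SHP-77 and -0.15 in H82. No member was that long. MNAT1, at 234 kb, was the only member between 100 and 300 kb, where the median over genes was -0.08 in H187 and -0.10 in H209, beside its own changes of -0.20 and -0.16. The members spanning 30 to 100 kb, 19 in H187 and 17 in H209, had medians of -0.05 and 0.02, beside 0.01 in each line for all genes of that span. The part of gene length in the members' changes was not tested.

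Beyond the members, 42 further genes of the pathway were listed, among them the single-strand binding protein RPA, the clamp PCNA, its loader RFC and the polymerases that fill the excised gap. Of these 42, 13 were higher and 1 lower in H187, where 12.2% of all genes were higher and 12.7% lower. In H209 18 were higher and 10 lower, where 22.7% and 22.5% of all genes were. In H82 edgeR called 0, where 2.92% of all genes passed, with 6 at an unadjusted p under 0.05. In SHP-77 it called 2 higher and 1 lower, where 1.98% and 3.21% of all genes were. Most of the rises lay in the 18 genes of single-strand binding and gap filling, of which 11 were higher and 0 lower in H187 and 13 higher and 0 lower in H209, with medians of 0.22 and 0.24. RFC2, a clamp loader subunit, rose by 0.40 ± 0.04 in H187 and 0.51 ± 0.03 in H209. POLD3, a subunit of polymerase delta, rose by 0.41 ± 0.05 and 0.56 ± 0.04 in the same lines. RPA2 rose by 0.35 ± 0.05 in H187 and RFC5 by 0.37 ± 0.03 in H209 (SE; edgeR, adjusted p of at most 9.8e-06 for each).

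The ISL1-low lines differed from this. RFC2 had -0.11 ± 0.05 in H82 (adjusted p = 0.20), INO80 -0.11 ± 0.04 and RFC1 -0.09 ± 0.04, none past the threshold. In SHP-77 POLE rose by 0.13 ± 0.03 (adjusted p = 0.0075) and RFC5 by 0.11 ± 0.03 (adjusted p = 0.043), while POLK, a translesion polymerase that takes part in gap filling, had -0.23 ± 0.06 (adjusted p = 0.024). The difference in response passed for 14 of the 18 against 31.6% of all genes, all 14 higher in the ISL1-high lines (15.7% of all genes), led by RFC2 at 0.48 ± 0.04, POLD3 at 0.47 ± 0.04 and RPA2 at 0.37 ± 0.04. In H187 and H209 LIG1 among the members thus moved in the same direction as the called genes of these 18. A link between them was not tested, nor was the process to which these changes belong. The list of 18 was chosen with earlier results of these data known, so its counts only describe it. The median over the 18 was -0.03 in H82, where LIG1 did not pass, and 0.05 in SHP-77, where LIG1 was called. In SHP-77 2 of the 18 were higher and 1 lower. The 17 accessory genes of recognition and the CUL4 ligases gave 0 higher and 1 lower in H187 and 4 higher and 8 lower in H209, and the 7 accessory genes of transcription-coupled repair 2 higher and 0 lower in H187 and 1 higher and 2 lower in H209, beside 24.9% of all genes called in H187 and 45.2% in H209.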

How the data were processed

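Total RNA of 24 cultures was sequenced after depletion of ribosomal RNA with a stranded kit, per the labels' protocols. STAR 2.7.10a, featureCounts, Subread 2.0.3 and edgeR 4.2.0 are named with hg38 in the submitters' processing notes. The annotation, the filter on low counts and the counting strand are not given in the sources used here. The authors deposited 1 table per line with raw counts per gene, and their log2 values, log2 fold changes, p-values and FDR. A signed fold change, a score in which falls are negative, stands beside these in the deposited tables. Only the counts entered the tests here.

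In R 4.3.3, edgeR 4.0.16 was run on the counts of each line's 6 libraries (filterByExpr with a minimum count of 10 and a minimum total of 15, TMM scaling, glmQLFit and glmQLFTest) over every listed gene, adjusted by Benjamini-Hochberg, and 0.05 was the threshold. "Called", "passed", "rose" and "fell" refer to that threshold. The difference in response was fitted on 24 libraries and the DMSO levels on 12, over 11408 shared genes, with a mean per line and treatment. CPM use library totals scaled by TMM factors of the 24 libraries, so a CPM ratio can differ slightly from a fitted fold. Per-length levels use the deposited exon length. Exon overlaps come from GENCODE v29 and promoters from RefSeq on GRCh38.p14. Matching by symbol gave windows for 31 members, without STK19 and TCEA1.

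Members and gene lists were chosen with earlier results of these data known. All 33 members are accounted for. Values per library are given for the transcription-coupled members, for members called in at least 2 lines, for up to 6 members with the smallest adjusted p in a line and, added after the values were seen, for every other member called in a line and ERCC1 in H209. Levels are named for the 3 highest and 3 lowest members per length and the 5 largest ratios between lines, and other pathway genes for the 3 smallest adjusted p per comparison. The table comparing classes under lurbinectedin was not used here. Alternatives were RLE scaling, 2 other filters, DESeq2 1.42.0, a replicate block, a GC correction, all libraries in 1 fit, the authors' FDR, a minimum change of 0.2 and leaving out each library. Replicate numbers showed no consistent pairing of the libraries, and the main tests were not paired.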

Additional observations from a re-analysis of the deposited data

Results flagged for a closer look

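11 members had a lurbinectedin effect in the ISL1-high lines that differed from that in the ISL1-low lines by the test of the difference itself (edgeR, adjusted p under 0.05, 31.6% of all genes tested). On the log2 scale the difference, ISL1-high minus ISL1-low, was 0.38 ± 0.09 for DDB2, 0.32 ± 0.04 for LIG1, 0.26 ± 0.04 for XRCC1, 0.23 ± 0.05 for GTF2H1 and 0.12 ± 0.04 for TCEA1 (± SE). It was -0.26 ± 0.07 for GTF2H5, -0.16 ± 0.04 for USP7, -0.16 ± 0.05 for CETN2, -0.15 ± 0.03 for RAD23B, -0.13 ± 0.03 for CUL4A and -0.12 ± 0.05 for MNAT1. DDB2, LIG1 and XRCC1 were higher in all 6 treated libraries of the ISL1-high lines than in the DMSO libraries of the same line, and RAD23B, USP7 and MNAT1 were lower in all 6. In the same direction, the treatments also did not overlap for LIG1 and USP7 in SHP-77 and for XRCC1 in H82. For GTF2H1, GTF2H5, CETN2, CUL4A and TCEA1 1 of the 2 ISL1-high lines passed alone, H209, and TCEA1 had the opposite sign in H187, at -0.06 ± 0.04.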

How the results depend on the processing

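No result called in the main fit or in an alternative changed its sign between them. For results called in neither, the signs were not compared. Of 39 calls of members in the 4 lines and in the response, 27 held under every alternative other than a minimum change of 0.2, which was applied to the counts of members alone: DDB2, MNAT1, LIG1 and XRCC1 in H187, 13 members in H209, and 10 of 11 responses, all but MNAT1. The members changed in H187 numbered 5 to 9 when each library was left out (10 with all) and 6 with that minimum change. In H209 they numbered 15 to 17 (17 with all) and 9 with that minimum. In H82 they numbered 0 to 1 (0 with all), and 1 with the replicate block, in the authors' deposited table and with all 24 libraries fitted together. In SHP-77 they numbered 0 to 1 (1 with all), and 0 with DESeq2, the replicate block, the GC correction, both together and the minimum change. The response counted 10 to 12 (11 with all) and 5 with the minimum change. The DMSO counts stayed within 1.5 times throughout, at 22 to 25 members between the classes.

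The replicate block left 7 members called in H187, 17 in H209 and 10 in the response. Same-numbered libraries of the 2 treatments correlated at -0.364 to 0.276, and differently numbered ones at -0.230 to 0.415. The shared number thus showed no consistent pairing, though so few libraries per group cannot exclude one. In DESeq2 ERCC8 and XPA in H187 and ERCC5 in H209 were not called. Depth limits the lowest members most: CDK7, STK19 and GTF2H4 had at most 43 counts in any library and ERCC5 in H209 at most 84. The cause of the settings' effects was not tested.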
